A study of Drosophila melanogaster with 4 samples.

Results

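The Iroquois complex of Drosophila melanogaster was examined in a map of histone H3 dimethylated at lysine 27 (H3K27me2) made by chromatin immunoprecipitation and sequencing (ChIP-seq). The complex holds 3 genes, ara, caup and mirr, on the left arm of chromosome 3 (3L). It was studied through a window of 750.001 kb on 3L, from 12300000 to 13050000 on FlyBase release 5, the build named in the headers of the deposited lists. The window was chosen from these same lists, for a long block without any enriched region and its surroundings. The presence, edges and size of the block, and the cover and scores beside it, are therefore a description, and no test was made. The window held 33 of the 10114 enriched regions of ChIP replicate 1, 38 of the 10115 of replicate 2 and 71 of the 16728 of the list deposited for the whole series.

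The chromatin came from nuclei of adult heads of Oregon-R, a wild-type laboratory strain kept in population cages, with the developmental stage given as mixed adult. The 4 samples were 2 ChIP replicates with the antibody Ab24684 and 2 inputs, each input tied by its label to the replicate of the same number. There was no mutant or treatment. The sexes, and whether the replicates came from separate collections, are not stated, and their spread may thus be technical only. Heads were pooled, and in such bulk chromatin a mark carried by fewer cells cannot be told apart from less of the mark in each cell.

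Lysine 27 of H3 is methylated in steps by Polycomb repressive complex 2. The dimethylated state is widespread in chromatin, whereas the trimethylated state marks domains of genes that Polycomb proteins hold silent, and the Iroquois complex is a known Polycomb target. Trimethylation was not measured here. The genes ara (araucan), caup (caupolican) and mirr (mirror) encode related homeodomain transcription factors of the TALE class. They are known for patterning the back of the thorax, where ara and caup act on proneural genes, the wing veins and the dorsal part of the eye, where mirr takes part in setting the border between the dorsal and the ventral fields. In a RefSeq table of Release 6, all 3 genes were matched on 3L, as ara (Dmel_CG10571), caup (Dmel_CG10605) and mirr (Dmel_CG10601). They follow each other in that order, with 0 genes between ara and caup and 4 long noncoding RNA genes between caup and mirr. The nearest protein-coding gene before ara is sowah and the nearest after mirr is SmD1, which encodes a core protein of spliceosomal particles. The lists name no genes, and the table has another build than the lists. The link between the block and ara, caup and mirr therefore rests on the choice of the window, and the place of each gene relative to the edges given below was not examined.

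No enriched region lay wholly within a block of about 200 kb in this window in any of the 3 lists. In the series' list the block was 201416 bp long, from 12565388 to 12766803, which is 26.9% of the window. In replicate 1 it was 201658 bp long, from 12565360 to 12767017. In replicate 2 it was 201877 bp long, from 12564881 to 12766757. The replicates thus gave a mean of 201768 ± 155 bp (SD, n = 2), and the lists differed by at most 507 bp at the left edge and 260 bp at the right edge. Replicate 1 covered 0 bp of the block of the series' list, and replicate 2 covered 46 bp at its right end, or 0.0228%. The lists hold called regions only, with neither reads nor a record of where reads could be aligned, so the block is sequence without a call.

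**Figure D1:**
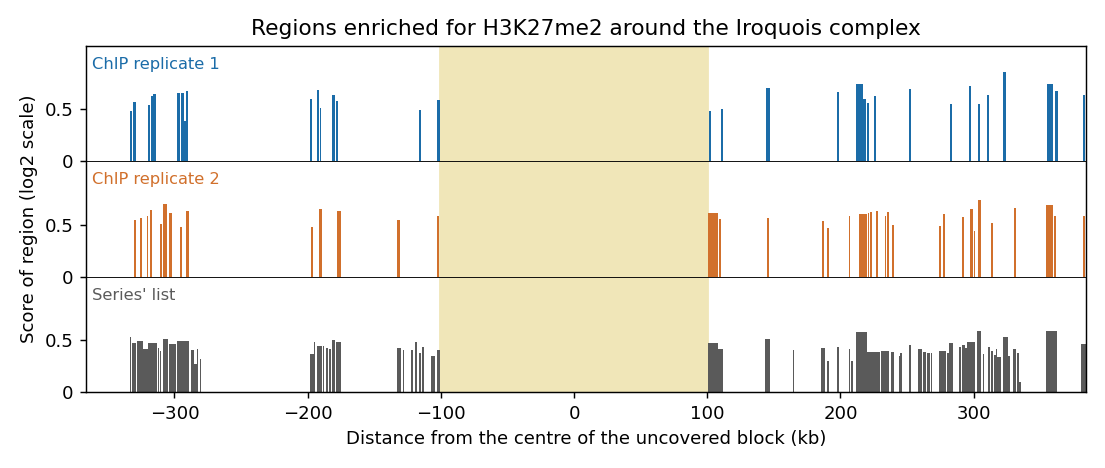
Enriched regions of the 3 lists across the window, plotted by distance in kb from the centre of the block, with bar width giving the length of a region and bar height its score on the log2 scale. The shaded block of 201416 bp is empty in all 3 lists apart from 46 bp of replicate 2 at its right end, and a further stretch of 81.4 kb on the left is empty as well.

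The block was the second longest gap of 3L in each list. It had rank 2 among 1974 gaps of 3L in replicate 1, among 2073 in replicate 2 and among 3025 in the series' list, where the median gaps were 3714, 3097 and 1210 bp. The one longer gap of the series' list on 3L, from 6756693 to 6958205, exceeded it by little, with 201513 bp. The next on 3L were 112823 bp (14075209 to 14188031), 111522 bp (3805084 to 3916605) and 107696 bp (8960058 to 9067753). Among the gaps of all 6 chromosome arms, 4 and X included, the block ranked 22 (replicate 1), 27 (replicate 2) and 10 (series' list).

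**Figure D2:**
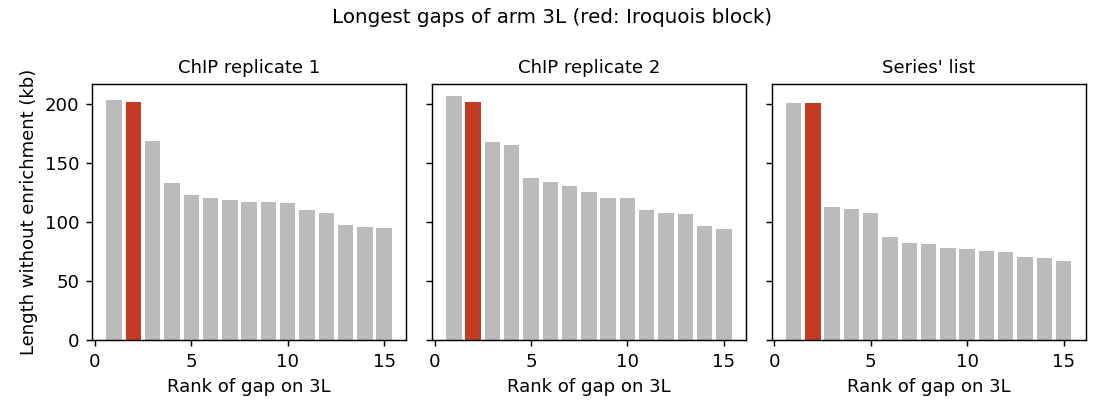
Length in kb of the longest gaps of arm 3L by rank in each list, with the block of the Iroquois window in red. The block has rank 2 in all 3 lists, and the gap of rank 3 has 169 kb (replicate 1), 168 kb (replicate 2) and 113 kb (series' list).

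The edges were placed alike by the replicates. The left edge of replicate 1 lay 28 bp, and that of replicate 2 lay 507 bp, from the left edge of the series' list. At the right edge replicate 1 began 214 bp beyond, and replicate 2 began 46 bp before, the first base covered in the series' list. Both edges therefore lay within 1 kb in both replicates. This depended on short regions. Without regions under 2 kb, the left edge of replicate 2 lay 74.3 kb and the right edge of replicate 1 lay 43.7 kb outside the block of the series' list. The other edges of the replicates and both edges of the series' list stayed in place. Of the other 4 gaps of 3L over 100 kb in the series' list, 1 (8960058 to 9067753) had both edges within 1 kb in both replicates. In the other 3 at least 1 edge of 1 replicate was shifted by more, down to -21910 bp at the left edge of the gap that starts at 3805084.

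A short region closed the block on the left in every list. In replicate 1 it spanned 2216 bp (12563144 to 12565359) with a score of 0.59, in replicate 2 it spanned 1363 bp (12563518 to 12564880) with 0.59, and in the series' list 2311 bp (12563077 to 12565387) with 0.40. The region of replicate 2 lay entirely inside that of replicate 1. The scores are the authors' own, their scale is not stated, and they are used here within 1 list only. Their values are those of log2 ratios of whole numbers less 1 constant per list (0.39, -0.0058 and 0.18), and the upper and lower numbers were taken for reads of the ChIP and of its input, a reading that neither the labels nor the headers give. On that reading the left border region rested on a ratio of 180 to 91 in replicate 1, 208 to 139 in replicate 2 and 667 to 444 in the series' list. The ratios are in lowest terms, so these scores carried log2 counting errors of no more than 0.19, 0.16 and 0.088. Such errors cover counting only, since copies made by PCR are not independent molecules.

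On the right the lists disagreed about the length of the border region more than about its start. Replicate 1 had a region of 1648 bp (12767018 to 12768665, score 0.49), replicate 2 one of 7025 bp (12766758 to 12773782, score 0.62) and the series' list one of 7360 bp (12766804 to 12774163, score 0.47). The region of replicate 1 lay entirely within that of replicate 2. Among the regions of 3L, these scores stood at the percentiles 4.86 (replicate 1), 55.7 (replicate 2) and 65.6 (series' list). A further region followed at 12776082 to 12777623 in replicate 1 and at 12775166 to 12776688 in replicate 2, and these overlapped. The 10 kb right of the block had a cover of 23.7% (replicate 1), 85.0% (replicate 2) and 98.1% (series' list). The 10 kb left of it were covered to 22.2%, 13.6% and 48.5%. The higher cover on the right was thus clear in replicate 2 and in the series' list, and slight in replicate 1. Replicate 2 covered 94.8% of the right border region of the series' list, which is therefore not a separate observation. Around the other 4 gaps of 3L over 100 kb, the 10 kb next to the 8 edges had a median cover of 20.4% (replicate 1), 14.2% (replicate 2) and 55.3% (series' list), with a 75th percentile of 30.2%, 28.3% and 61.9%. The right edge of the block thus lay above that percentile in replicate 2 and the series' list and below it in replicate 1.

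Within 75 kb of the block both sides were sparse in the replicates. Counts and covers here start at the block's edges and include the border regions. To the left, replicate 1 had 2 regions within 50 kb and within 75 kb, and replicate 2 had 2 within 50 kb and 3 within 75 kb, which gave a cover of 4.81% and 5.09% within 75 kb. The second region of replicate 1 (12549555 to 12550944) touched none of replicate 2, and the second of replicate 2 (12533496 to 12535297) touched none of replicate 1. These single regions rested on ratios of 83 to 45 and 67 to 46, with counting errors of up to 0.27 and 0.28. To the right, each replicate had 3 regions within 75 kb, and the third was shared, at 12810544 to 12813082 in replicate 1 and 12810587 to 12812582 in replicate 2. The cover within 75 kb on the right was 7.64% and 13.997%. On the left, 75 kb was the distance with the lowest cover in both replicates, among those computed from 10 to 200 kb. Within 100 kb, replicate 1 covered 11.28% (left) and 7.20% (right), and replicate 2 covered 9.06% and 14.031%. The rest of 3L, that is 3L outside the window, had a cover of 21.4% and 21.6%, respectively. The series' list had a cover of 42.8% (left) and 42.5% (right) within 25 kb, border regions included. On the right its cover fell from 98.1% in the first 10 kb to 8.15% from 10 to 20 kb. It was 0% from 20 to 30 kb and from 30 to 40 kb. On the left the same steps were covered to 48.5%, 42.9%, 32.8% and 18.9%. Within 75 kb the series' list covered 20.2% and 20.9%, and within 100 kb 31.8% and 22.3%, against 45.4% on the rest of 3L. Sparse sequence was also found beside the other 4 gaps of 3L over 100 kb. Within 50 kb of their 8 edges the cover was between 3.71% and 22.2% (replicate 1) and between 2.73% and 24.4% (replicate 2). The values within 50 kb of the block, 7.21% (left) and 11.5% (right) in replicate 1 and 6.33% and 21.0% in replicate 2, lay inside these ranges. Within 100 kb of the 8 edges the ranges were 4.91% to 26.8% (replicate 1) and 1.37% to 24.1% (replicate 2). The values within 100 kb of the block lay inside these too.

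Further gaps lay in the left flank, between 12300000 and the block. In the series' list the longest ran from 12386391 to 12467800 (81410 bp, rank 8 on 3L), and neither replicate covered any of it. Its own gaps there were 91715 bp in replicate 1 (12376299 to 12468013) and 92160 bp in replicate 2 (12376834 to 12468993). A gap of 42261 bp (12491233 to 12533493) was also free of regions in both replicates. Between these gaps lay a group of regions from 12467801 to 12491232 in the series' list, where replicate 1 had 5 regions and replicate 2 had 3. In the right flank the longest gap of the series' list was 31619 bp (12777619 to 12809237). It held no region of replicate 2 and only the last bases of 1 region of replicate 1.

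Over the whole flanks the mark was called less than on the rest of 3L. The left flank of 265.388 kb had a cover of 10.0% (replicate 1) and 9.71% (replicate 2), with a mean of 9.87% ± 0.221 (SD, n = 2). The right flank of 283.197 kb was covered to 12.8% and 19.1%, a mean of 16.0% ± 4.47 (n = 2). Both replicates lay below the rest of 3L on both sides, with differences of -11.4 and -11.9 percentage points on the left and of -8.62 and -2.53 on the right. The series' list covered the flanks to 29.0% and 42.1%, and the rest of 3L to 45.4%. The replicates thus gave nearly equal values on the left, and on the right they differed by more than the deficit of replicate 2.

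**Figure D3:**
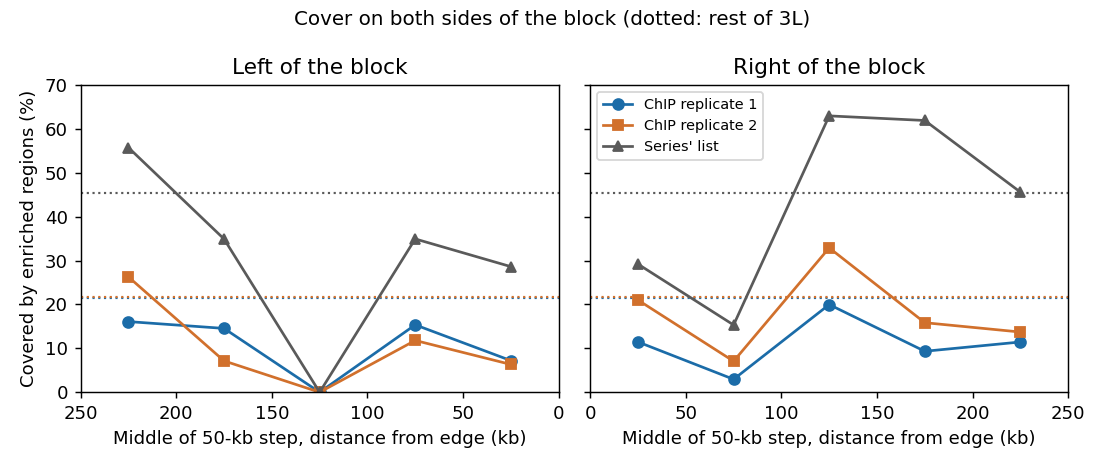
Percentage of each 50-kb step covered by enriched regions, left and right of the block, by distance in kb from its edge, with dotted lines for the rest of 3L in the same list. The step from 100 to 150 kb on the left is at 0 in all 3 lists, and on the right the step from 100 to 150 kb reaches 20.0% (replicate 1), 32.9% (replicate 2) and 63.0% (series' list).

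Cover did not change evenly with distance. On the left the steps of 50 kb outward from the block were covered to 7.21%, 15.4%, 0%, 14.5% and 16.1% in replicate 1 and to 6.33%, 11.8%, 0%, 7.14% and 26.3% in replicate 2. The lowest step was the one that lies in the gap of 81410 bp. On the right they were covered to 11.5%, 2.95%, 20.0%, 9.33% and 11.4% in replicate 1 and to 21.0%, 7.07%, 32.9%, 15.8% and 13.7% in replicate 2. Both replicates had their highest step on the right between 100 and 150 kb. That step holds 1 of the longest regions of the window in each list, namely 4898 bp in replicate 1 (12877863 to 12882760), 6184 bp in replicate 2 (12879737 to 12885920) and 9278 bp in the series' list (12886228 to 12895505).

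Bins of 10 kb restate the same cover and are not a separate observation. All 19 bins that lie wholly in the block held no covered base in each list, where the share of all bins of 3L without one was 40.7% (replicate 1), 41.4% (replicate 2) and 21.7% (series' list). The window was chosen for this, so nothing is read from it. Of the 54 bins wholly in the flanks, replicate 1 left 30 without a covered base (55.6%), replicate 2 left 28 (51.9%) and the series' list 19 (35.2%). On the rest of 3L the shares were 39.9%, 40.7% and 20.7%. Of the 10 bins of 50 kb wholly in the flanks, 1 (10%) was without a covered base in each list. The rest of 3L had 7.38%, 8.86% and 2.53%, so at this size the contrast was small in the replicates. The median cover of these wider flank bins was 13.6%, 11.8% and 32.9%, against 18.9%, 17.95% and 45.9% on the rest of 3L. In each list the flank median thus lay below the median of the rest of 3L but above its lower quartile. Neighbouring bins are not independent, and no test was made.

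Regions in the flanks had a shorter median length in each list and were fewer per 100 kb in the replicates. Replicate 1 had 6.02 regions per 100 kb in both flanks together and replicate 2 had 6.93, against 8.17 and 8.55 on the rest of 3L. Their median lengths were 1648 and 1745 bp, against 2007 and 1966 bp. Regions over 5 kb numbered 0 of 33 in replicate 1 and 3 of 38 (7.89%) in replicate 2, all 3 in the right flank. On the rest of 3L such regions made up 8.23% and 7.52%, so that in replicate 2 their share was about the same. The flanks held in the series' list 12.9 regions per 100 kb, slightly above the 12.4 of the rest of 3L, but with a shorter median of 2000 against 2236 bp. This hid a difference between the sides, with 11.3 regions per 100 kb in the left flank and 14.5 in the right flank.

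Median scores in the flanks were slightly below those elsewhere on the arm, most so in the left flank of replicate 1. The median score in both flanks was 0.63 (replicate 1) and 0.59 (replicate 2), where the rest of 3L had 0.65 and 0.60. The differences were -0.019 and -0.017 on the log2 scale, from 33 and 38 flank regions. Single flank regions had median counting errors of up to 0.19 and 0.17, on the reading given above. The differences were -0.052 and -0.018 for the left flank alone and -0.012 and -0.017 for the right flank alone. In the series' list the order of the sides was the reverse, with -0.010 (left) and -0.025 (right). Within 100 kb of the block the mean of the replicates was -0.050. It rested on few regions, 7 left and 4 right in replicate 1, and 5 on each side in replicate 2. In the left flank 4 of 16 regions of replicate 1 and 6 of 14 of replicate 2 scored above the median of 3L, and in the right flank 8 of 17 and 10 of 24 did. The highest score of the window was 0.86 in replicate 1 (12988025 to 12990632), where no region of replicate 2 overlapped it, and 0.74 in replicate 2 (12968999 to 12971918). On the rest of 3L scores reached 2.30 and 1.95. In the series' list the 3 highest scores were 0.59 (13020305 to 13028636), 0.59 (12968821 to 12971871) and 0.58 (12877587 to 12885865), all in the right flank. The 3 longest were the regions of 9278 bp named above, 9142 bp (12367799 to 12376940, score 0.49) and 8332 bp (13020305 to 13028636).

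**Figure D4:**
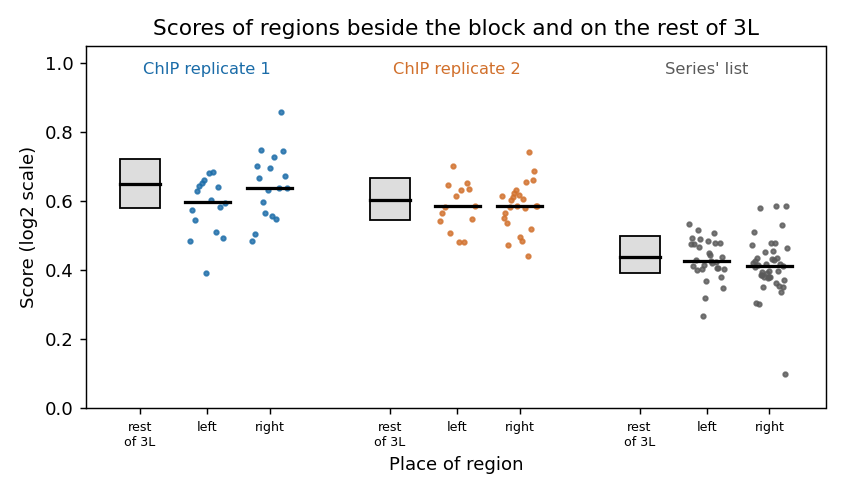
Scores on the log2 scale of the regions left and right of the block (points, with a black line at their median) beside the scores on the rest of 3L (grey box from percentile 25 to percentile 75, with a line at the median) in each list. The flank medians, 0.60 and 0.64 (replicate 1), 0.58 and 0.59 (replicate 2), and 0.43 and 0.41 (series' list), all lie within the box of their list.

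The replicates called the empty block alike but shared fewer bases in the flanks than elsewhere. In both flanks together 28460 bp were covered in both replicates and 114267 bp in either, a Jaccard index (bases in both over bases in either) of 0.249, against 0.375 on the rest of 3L. It was 0.175 in the left flank and 0.296 in the right flank. The index also depends on how much sequence is covered, which was less in the flanks, and its part in the difference was not tested. By regions, 22 of the 33 in replicate 1 (66.7%) overlapped replicate 2 by at least 1 bp, and 20 of the 38 in replicate 2 (52.6%) overlapped replicate 1. On the rest of 3L these shares were 67.9% and 65.2%. Of the bases of the series' list in the flanks, 14.5% were also covered by both replicates, 42.3% by 1 and 43.2% by neither, against 25.9%, 41.2% and 33.0% on the rest of 3L.

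The left bound of the window lay in a gap, and the right bound lay inside a region of the series' list. The nearest regions of the series' list outside it were at 12253607 to 12254953, on the left, and at 13051231 to 13052560, on the right. The first region inside was at 12332857 to 12333859 and the last at 13046657 to 13050059, which runs past the bound. A gap of 77903 bp (12254954 to 12332856) thus crossed the left bound, and its part inside the window counts in the left flank.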

How the data were processed

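Head chromatin of 2 ChIP replicates, each with an input, was sequenced. Per the submitters' processing notes, Bowtie 0.12.7 was among the tools. The authors deposited 3 lists of significantly enriched regions on FlyBase release 5, per the file headers, 1 per ChIP replicate and 1 for the series, with a score per region. The sources used here do not give the caller, its threshold, the scale of the score or the way the series' list was made. Library depths are unknown. Regions were trimmed at scaffold ends, and cover, gaps, the Jaccard index and medians were computed with Python 3.11.15 and numpy 2.4.6. The functions for cover, gaps, the Jaccard index and the score ratios were checked on simulated or constructed input (6 of 6 checks passed). The medians were not part of these checks. Scores were matched to log2 ratios of whole numbers within a relative difference of 1e-12 (100% in each list). The constant of each list was the one that gave the simplest ratios. The flanks are the window without the block of the series' list. Regions named are those beside the block and the 3 longest and 3 highest-scoring of the series' list, besides gaps over 100 kb on 3L, while other regions and gaps were named after their values were seen. The members and the window were chosen with earlier results of these data known. No gene positions on release 5 and no sequences were used here.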

Additional observations from a re-analysis of the deposited data

How the results depend on the processing

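No paired analysis was possible because there is only 1 group with region lists, the inputs having none. The block was 201.4 kb in the series' list. The mean of the replicates, 201.8 kb, grew to 368.5 kb when only regions above the median score of their list counted, and to 260.4 kb without regions under 2 kb, both of which remove regions by construction. The block of the series' list was 218.7 kb and 201.4 kb under the same settings. Leaving out 1 replicate gave 201.7 to 201.9 kb. The cover of the block stayed between 0% and 0.0228% in every setting tried, which follows largely from how the block was set. By definition it holds no region of the series' list, and leaving out low scores can only lower its cover. Nothing is therefore read from this. The cover of the flanks was 35.8% in the series' list, 4.28% above the median score and 10.4% in flanks of 100 kb, and 11.5% to 14.6% with 1 replicate left out. Flank cover minus that of the rest of 3L, -8.52 percentage points as a mean of the replicates, was negative in every setting. It was -11.1 with flanks of 100 kb and ranged from -9.96 to -7.08 with 1 replicate left out. The difference in median score, -0.018 as a mean, was -0.020 in the series' list, -0.050 with flanks of 100 kb and -0.013 without the proximal 2 Mb of 3L, and -0.019 to -0.017 with 1 replicate left out. The Jaccard index was 0.177 above the median score, 0.256 after merging regions closer than 1 kb and 0.222 in flanks of 100 kb. With 2 replicates and no read depths, differences of the size of the spread between replicates could not be resolved.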

Other observations

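The block ended a longer thinly covered stretch, noticed after the values were seen. From the start of the gap at 12386391 to the right edge of the block at 12766803, 380 kb in all, replicate 1 had 7 regions that covered 2.97%, and replicate 2 had 5 regions left of the block, which with its 46 bp at the right edge covered 2.39%. The series' list covered 8.35% of it with 16 regions. The 179 kb of it left of the block had a cover of 6.30% (replicate 1), 5.06% (replicate 2) and 17.7% (series' list). The ends of the stretch were set at the start of a gap and the end of the block. It also holds the gap of 42261 bp, so its low cover follows largely from that choice. No other stretch of this length was compared.

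With only regions above the median score of their list, the longest gap in the window ran from 12475006 to 12810543 in replicate 1 (335538 bp). In replicate 2 it ran from 12491044 to 12892505 (401462 bp), and each was the longest on 3L in its list. In the series' list it ran from 12548081 to 12766803 (218723 bp), with rank 3 on 3L. The right edge at 12766803 was thus kept in the series' list, whereas in the replicates the gap reached 43.7 and 126 kb further to the right. The left edge was kept in no list. There the gap reached 90.4 kb (replicate 1), 74.3 kb (replicate 2) and 17.3 kb (series' list) further to the left.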
